A study of Mus musculus with 4 samples.

Results

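The nuclear genes for subunits of the mitochondrial respiratory chain and the ATP synthase were followed on 4 arrays of sorted mouse dermal papilla cells. A gene was taken as a member by its symbol alone, from the families Nduf, Sdh, Uqcr, Cox4 to Cox8 and Atp5, when at least 1 probe set was annotated to that gene and no other. This gave 80 of the 19938 genes measured, read by 104 probe sets. They comprised 34 genes of complex I, 4 of complex II, 8 of complex III, 17 of complex IV and 17 of complex V. Cox7c, Ndufb1 and Ndufb4 had no probe set of their own and were not counted.

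Expression was measured on 2 arrays from Sox2 conditional knockout (cKO) skin and 2 arrays from Sox2 heterozygous (Het) skin, all from mice at postnatal day 5. In both groups the cells had been sorted for a Sox2 green fluorescent reporter and integrin alpha 9 together, so the Het and the cKO cells alike carried the reporter. The series sets cKO against Het to ask what loss of the transcription factor Sox2 does to gene expression in the dermal papilla, a mesenchymal cell cluster that signals to the follicle's epithelium. Neither the deleted allele nor the Cre driver is given in the sources used here. The labels call the arrays biological replicates without saying whether each is a separate animal, litter or pool. The p-values below therefore set the group difference only against the spread between these samples, which may not be a spread between animals.

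The respiratory chain passes electrons from NADH (complex I) and succinate (complex II) through ubiquinone to complex III, and through cytochrome c to complex IV, which reduces oxygen. Complexes I, III and IV pump protons across the inner mitochondrial membrane, and complex V, the ATP synthase, uses the gradient to make ATP. Most subunits are encoded in the nucleus, and the remaining core subunits of complexes I, III, IV and V in the mitochondrial genome, so each of those complexes is assembled from both sources, whereas complex II is wholly nuclear.

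The promoters of this gene family are known for letters read by the nuclear respiratory factor NRF1 and by ETS factors such as GABP, so the 250 bases before the transcription start are shown for 6 members that differ in these letters. The sequences are RefSeq's, build GRCm38.p6, and are written 5′ to 3′ on the strand of the gene. Ndufb8 (chr19:44555443-44555692, minus strand) is shown as the member with the lowest cKO minus Het difference; it holds none of the NRF1, ETS or YY1 letters. The other 5 were chosen after the matches were seen, as members of each complex whose cKO values were lower without overlap and whose promoter held NRF1 or else ETS letters. They are Ndufa11 of complex I (chr17:56717512-56717761, plus strand), Sdhd of complex II (chr9:50603850-50604099, minus strand), Uqcr11 of complex III (chr10:80406822-80407071, minus strand), Cox6a1 of complex IV (chr5:115348959-115349208, minus strand) and Atp5j2 of complex V (chr5:145191542-145191791, minus strand). Capitals mark the NRF1 letters GCGCANG or CNTGCGC, where N is any base, and the ETS letters CCGGAAG or CTTCCGG.
Ndufb8: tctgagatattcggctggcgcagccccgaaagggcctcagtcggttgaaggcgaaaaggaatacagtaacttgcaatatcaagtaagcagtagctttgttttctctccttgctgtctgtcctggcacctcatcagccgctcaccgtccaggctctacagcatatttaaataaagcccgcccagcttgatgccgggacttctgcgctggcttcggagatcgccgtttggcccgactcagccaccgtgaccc
Ndufa11: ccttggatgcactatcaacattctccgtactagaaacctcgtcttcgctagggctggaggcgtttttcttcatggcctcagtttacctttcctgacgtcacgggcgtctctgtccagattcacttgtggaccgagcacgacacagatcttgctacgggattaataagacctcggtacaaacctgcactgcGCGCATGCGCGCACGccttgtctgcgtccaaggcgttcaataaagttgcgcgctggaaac
Sdhd: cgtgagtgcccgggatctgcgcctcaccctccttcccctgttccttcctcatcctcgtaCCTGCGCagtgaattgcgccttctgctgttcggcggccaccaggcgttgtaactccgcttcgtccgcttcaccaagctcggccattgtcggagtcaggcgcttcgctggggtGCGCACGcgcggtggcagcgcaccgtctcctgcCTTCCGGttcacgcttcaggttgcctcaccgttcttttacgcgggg
Uqcr11: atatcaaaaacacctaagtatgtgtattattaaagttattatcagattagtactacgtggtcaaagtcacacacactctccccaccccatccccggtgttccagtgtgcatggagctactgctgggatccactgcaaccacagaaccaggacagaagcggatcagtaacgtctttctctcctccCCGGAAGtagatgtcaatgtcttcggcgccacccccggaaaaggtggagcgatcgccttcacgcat
Cox6a1: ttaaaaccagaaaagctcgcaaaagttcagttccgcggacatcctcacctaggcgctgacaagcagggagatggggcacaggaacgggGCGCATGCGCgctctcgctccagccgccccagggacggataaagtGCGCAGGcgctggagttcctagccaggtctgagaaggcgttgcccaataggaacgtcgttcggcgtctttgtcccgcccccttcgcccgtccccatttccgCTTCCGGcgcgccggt
Atp5j2: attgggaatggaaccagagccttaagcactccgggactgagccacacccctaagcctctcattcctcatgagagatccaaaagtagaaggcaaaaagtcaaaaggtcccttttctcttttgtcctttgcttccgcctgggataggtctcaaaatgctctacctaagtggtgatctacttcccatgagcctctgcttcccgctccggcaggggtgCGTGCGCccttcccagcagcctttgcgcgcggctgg

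Of the 80 members, 66 had a promoter in the RefSeq table, with 71 start sites in all. The NRF1 letters were found in 25 of these 71 promoters (35.2%), against 13.9% of all 32851 mouse promoters in the table and 18.9% of the 19177 promoters of genes measured here. The ETS letters were found in 12 (16.9%), against 6.91% of all promoters and 9.41% of those of measured genes. For YY1 the letters AAGATGG or CCATCTT were found in 1 promoter, that of Atp5j (1.41%, against 4.49% of all promoters and 4.17% of those of measured genes), and for SP1 the letters GGGCGG or CCGCCC in 24 (33.8%, against 32.7% of all promoters and 45.5% of those of measured genes). Both strands were searched, overlapping matches were each counted, and a match is a description of the letters and not a site of binding.

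The deposited values are on a log scale, taken here as log2 because RMA gives that scale and no base is stated, and centred so that the median of each probe set over the 4 arrays is 0. All values below are therefore log2 deviations of a gene from its own median, positive on arrays where it was high, and no expression level, detection or rank between genes can be read from them. For the same reason the labelled cell type could not be checked for the presence or absence of its markers, only for differences. In a gene with 1 probe set, the 2 arrays between the highest and the lowest mirror each other around 0. Differences are cKO minus Het, with standard errors (SE, n = 2 arrays per group) from a moderated linear model (limma) fitted to all genes.

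Sox2, the ablated gene, stood at -0.87 and -0.94 on the cKO arrays, against 0.96 and 0.87 on the Het arrays, a difference of -1.81 ± 0.06 (limma adjusted p = 0.345), in the direction that the labels give. The array medians over all probe sets were level, between -0.00366 and 0.0043, but the spread was not. The standard deviation over all genes was 0.108 and 0.147 on cKO replicates 1 and 2, against 0.132 and 0.097 on Het replicates 1 and 2. No gene passed an adjusted p of 0.05 (limma, Benjamini-Hochberg over all genes, 0% of 19938), while 680 genes had an unadjusted p under 0.05 with a lower value in cKO (3.41%) and 373 with a higher one (1.87%). The sex-linked genes differed between groups as well: the female-expressed Xist stood at 0.85 and 1.23 in cKO, against -4.08 and -0.85 in Het. The Y-linked Eif2s3y stood at -0.87 and -0.79 in cKO, against 1.18 and 0.79 in Het, and Kdm5d and Uty were likewise lower on both cKO arrays. Het replicate 1 was lowest for Xist and highest for all 3 Y-linked genes measured. The 16 dermal papilla markers, Sox2 among them, had a median difference of -0.06, with 9 lower and 7 higher in cKO. With no overlap between the groups 4 of them were lower and 4 higher, against 15.6% and 17.8% of all genes. The 13 keratinocyte markers were all highest on Het replicate 2 and summed to -0.69 and -0.05 on the cKO arrays, against -1.55 and 4.68 on the Het arrays. The 10 melanocyte markers summed to -1.19 and 1.10 in cKO, against -1.35 and 2.32 in Het. The 8 measured Schwann and glial markers, of 10 listed, summed to -0.44 and -2.28 in cKO, against 1.44 and 1.07 in Het. These sums, like the medians over the subunit genes, were lowest on cKO replicate 2 and highest on Het replicate 1. Taken singly, 5 of the 8 markers were lowest on cKO replicate 2 and 2 were highest on Het replicate 1. Among the 8 markers the groups did not overlap in Egr2 (-1.35 ± 0.23), Fabp7 (-0.82 ± 0.08) and Erbb3 (-0.12 ± 0.06), all lower in cKO. In the other 5 markers the groups overlapped, and 3 of these, Foxd3, Gfap and Mbp, were higher in cKO, by 0.09, 0.03 and 0.04. The part of sex and of other cell types in the results below was not tested. In bulk samples fewer cells of a type and less RNA per cell cannot be told apart.

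Most subunit genes were lower in cKO, by small amounts, and none of the differences passed the test. The difference was below 0 in 64 of the 80 members (80%), against 47.7% of all genes. Of the members, 33 were lower in cKO with no overlap between the groups (41.2%, against 15.6% of all genes) and 6 were higher with no overlap (7.5%, against 17.8% of all genes). The median difference over the members was -0.17, against 0.00 over all genes. With the unadjusted limma p, 14 of the 80 members were under 0.05 and lower in cKO, against 3.41% of all genes. Under the same threshold 0 members were higher, against 1.87% of all genes. The smallest adjusted p of any member was still 0.897 (limma). Although its genes were chosen by symbol, the family itself was selected on earlier results of these same 4 arrays, namely its values by group and by replicate, so these counts describe it and are no test.

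A single array of each group weighed heavily on these values. The median over the members was -0.00 on cKO replicate 1 and -0.17 on cKO replicate 2, against 0.10 on Het replicate 1 and 0.01 on Het replicate 2. The medians of cKO replicate 1 and Het replicate 2 thus lay near 0; in a gene with 1 probe set the centring places the 2 middle arrays evenly around 0. The lowest value fell on cKO replicate 2 in 55 members (68.8%, against 25.7% of all genes), and the highest on Het replicate 1 in 45 (56.2%, against 25.3%). Without cKO replicate 2 the median difference was -0.04 and 49 members were lower (61.2%, against 51.9% of all genes). Leaving out Het replicate 1 gave a median of -0.10 with 54 members lower (67.5%, against 47.9% of all genes). Without cKO replicate 1, 60 members were lower with no overlap (75%, against 32.5% of all genes), and without Het replicate 2, 54 (67.5%, against 31.6%). With cKO replicate 2 left out it was 35 (43.8%, against 33.4%) and with Het replicate 1 left out 37 (46.2%, against 30.4%), since 3 arrays separate more easily than 4. Between cKO replicate 1 and Het replicate 2 alone, a pair chosen after the other arrays were seen to be the extremes, the median difference was -0.01.

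**Figure D1:**
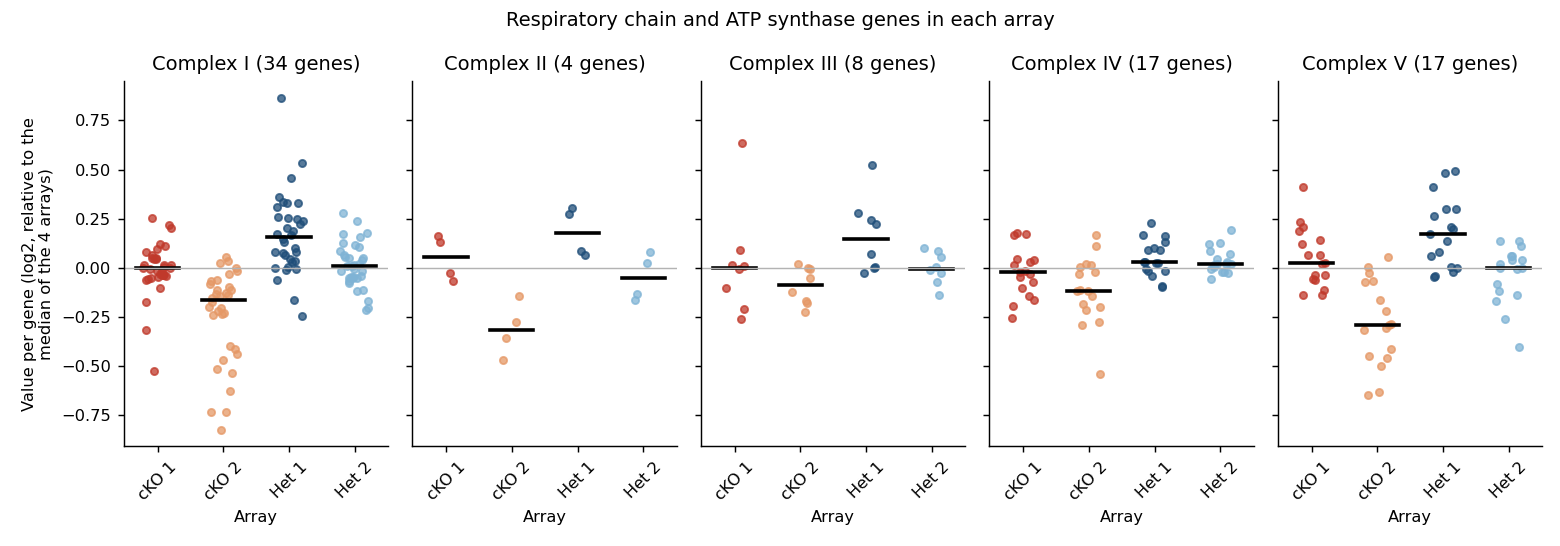
Log2 deviation of each member from its own median over the 4 arrays, by complex, with cKO replicates 1 and 2 left of Het replicates 1 and 2; each point is 1 gene and each bar the median over the genes of that complex. The bars are lowest on cKO replicate 2 in all 5 complexes and highest on Het replicate 1 in all 5.

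Complex I, the NADH dehydrogenase, was lower in cKO in 32 of its 34 measured members. Of its members 13 were lower and 0 higher without overlap, against 15.6% and 17.8% of all genes. Its members had medians of -0.00 and -0.16 on the cKO arrays, against 0.16 and 0.01 on the Het arrays, and a median difference of -0.18, with a range of -0.69 to 0.03. Without cKO replicate 2 the median was -0.08. Ndufb6 and Ndufs4 were the members on the other side of 0, each at 0.03.

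Ndufb8, an accessory subunit of the membrane arm, stood at -0.17 and -0.73 in cKO, against 0.31 and 0.17 in Het. Both cKO arrays lay below both Het arrays, and the difference of -0.69 ± 0.22, a mean 1.62-fold lower in cKO, was the lowest of all members (limma adjusted p = 0.936). Ndufb10, a neighbour of Ndufb8 in the membrane arm, stood at -0.01 and -0.13 in cKO, against 0.87 and 0.01 in Het. Its difference of -0.51 ± 0.33 rested on Het replicate 1, since the other 3 arrays lay between -0.13 and 0.01. Ndufa11, a membrane-arm subunit, stood at -0.04 and -0.54 in cKO, against 0.33 and 0.05 in Het, a difference of -0.48 ± 0.22. Its 2 probe sets differed by -0.63 and -0.34, both lower in cKO. Ndufa7, an accessory subunit of the peripheral arm, stood at -0.31 and -0.17 in cKO, against 0.17 and 0.28 in Het. Here the lowest array was cKO replicate 1 and the highest Het replicate 2, the replicates lay close together, and the difference was -0.47 ± 0.07 or 1.38-fold lower in cKO (limma adjusted p = 0.897).

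The 6 measured nuclear core subunits of complex I, which carry the flavin, the iron-sulphur clusters or their scaffold, were all lower in cKO, within a narrow range of -0.22 to -0.10 and with a median of -0.18. Ndufs1, the largest iron-sulphur subunit, stood at -0.05 and -0.11 in cKO, against 0.14 and 0.05 in Het, and was the core subunit whose groups did not overlap, with a difference of -0.18 ± 0.05. Ndufv1, which binds NADH and the flavin, stood at 0.05 and -0.06 in cKO, against 0.33 and -0.05 in Het, a difference of -0.15 ± 0.16. Ndufv2, its iron-sulphur partner, stood at 0.01 and -0.40 in cKO, against -0.01 and 0.04 in Het, a difference of -0.21 ± 0.16. In Ndufv1 the high array was Het replicate 1 and in Ndufv2 the low array was cKO replicate 2, and the other 3 arrays of each lay near 0.

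Ndufs3, a scaffold subunit of the peripheral arm, stood at 0.05 and -0.20 in cKO, against 0.33 and -0.05 in Het, a difference of -0.22 ± 0.18. Ndufs7, which carries the last iron-sulphur cluster before ubiquinone, stood at 0.22 and -0.41 in cKO, against 0.22 and -0.22 in Het, a difference of -0.10 ± 0.29. Ndufs8, another iron-sulphur subunit, stood at 0.02 and -0.02 in cKO, against 0.53 and -0.17 in Het, a difference of -0.18 ± 0.27. In these 3 genes both replicate 1 arrays lay above both replicate 2 arrays, and the groups overlapped. The difference of Ndufs7 was 0.21 without cKO replicate 2 and 0.12 without Het replicate 1, and that of Ndufs8 0.17 and that of Ndufv1 0.05 without Het replicate 1. The 28 accessory subunits had a median difference of -0.17, and 26 of them were lower in cKO.

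The largest gaps between replicates in complex I were those of Ndufa3, Ndufb9 and Ndufa5. Ndufa3, a small membrane-arm subunit, stood at 0.12 and -0.73 in cKO, against 0.46 and -0.12 in Het, a difference of -0.48 ± 0.39. Ndufb9, which belongs to the distal membrane arm, stood at 0.05 and -0.82 in cKO, against 0.20 and -0.05 in Het, a difference of -0.47 ± 0.34. Ndufa5, a peripheral-arm subunit, stood at 0.20 and -0.44 in cKO, against 0.24 and -0.20 in Het, a difference of -0.13 ± 0.29. Replicate 1 exceeded replicate 2 in both groups for all 3, by 0.85, 0.87 and 0.64 within cKO and by 0.58, 0.25 and 0.44 within Het. For Ndufa5 the difference turned to 0.19 without cKO replicate 2 and to 0.09 without Het replicate 1.

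Complex II, succinate dehydrogenase, couples the citric acid cycle to the chain, and all 4 of its genes were lower in cKO by nearly the same amount, between -0.21 and -0.18. The complex had medians of 0.05 and -0.32 on the cKO arrays, against 0.18 and -0.05 on the Het arrays. Sdha, the flavoprotein that oxidises succinate, stood at 0.16 and -0.47 in cKO, against 0.27 and -0.16 in Het, a difference of -0.21 ± 0.29. Sdhb, the iron-sulphur subunit, stood at 0.13 and -0.36 in cKO, against 0.30 and -0.13 in Het, a difference of -0.20 ± 0.25. In both catalytic subunits the replicate 1 arrays lay above the replicate 2 arrays, and the groups overlapped.

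The membrane anchors of complex II were steadier between replicates. Sdhc stood at -0.02 and -0.28 in cKO, against 0.09 and 0.02 in Het, a difference of -0.21 ± 0.10. Sdhd stood at -0.07 and -0.14 in cKO, against 0.07 and 0.08 in Het, a difference of -0.18 ± 0.04 (limma adjusted p = 0.934). Both cKO arrays lay below both Het arrays in each anchor. The median of -0.20 over the complex was -0.02 without cKO replicate 2, -0.08 without Het replicate 1, -0.39 without cKO replicate 1 and -0.33 without Het replicate 2. Without cKO replicate 2 the differences of Sdha and Sdhb turned to 0.11 and 0.05, and without Het replicate 1 to 0.01 and 0.02.

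Complex III, the cytochrome bc1 complex, had 4 of its 8 members lower in cKO without overlap, against 15.6% of all genes. Another 2, Uqcrb and Uqcrfs1, were higher without overlap, against 17.8% of all genes, Uqcrfs1 by only 0.04 ± 0.04. The median difference of the complex was -0.14, with a range of -0.52 to 0.39, the widest upward reach of any complex. Without cKO replicate 2 the median was -0.06, without Het replicate 1 it was -0.05, and without Het replicate 2 it was -0.23. Uqcr11, a small subunit at the edge of the complex, stood at -0.26 and -0.18 in cKO, against 0.52 and 0.09 in Het, a difference of -0.52 ± 0.17 or 1.44-fold lower in cKO. Its 2 probe sets differed by -0.53 and -0.52. Uqcr10, another small subunit, stood at -0.10 and -0.12 in cKO, against 0.28 and 0.10 in Het, a difference of -0.30 ± 0.08. In both genes the cKO arrays lay close to each other, and Het replicate 1 was the highest array.

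Uqcrc1, one of the large core proteins that face the matrix, stood at -0.21 and -0.05 in cKO, against 0.22 and 0.05 in Het, a difference of -0.27 ± 0.09. Uqcrc2, its partner core protein, stood at 0.01 and -0.01 in cKO, against 0.01 and -0.02 in Het, a difference of 0.01 ± 0.04. Uqcrfs1, the Rieske iron-sulphur protein that takes the electron from ubiquinol, stood at 0.01 and 0.02 in cKO, against -0.02 and -0.01 in Het, a difference of 0.04 ± 0.04. The core proteins thus stood apart in these arrays, with Uqcrc1 lower in cKO without overlap and Uqcrc2 and Uqcrfs1 within 0.03 of their medians on every array.

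Uqcrb, which binds near a ubiquinone site, ran the other way. It stood at 0.63 and 0.00 in cKO, against -0.00 and -0.14 in Het, a difference of 0.39 ± 0.25 or 1.31-fold higher in cKO (limma adjusted p = 0.982), and its 3 probe sets differed by 0.32 to 0.49. The groups did not overlap, but by less than 0.01, and the height came from cKO replicate 1: without that array the difference was 0.07. Uqcrq stood at -0.01 and -0.22 in cKO, against 0.25 and 0.01 in Het, and Uqcrh, the hinge protein, at 0.09 and -0.17 in cKO, against 0.07 and -0.07 in Het.

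**Figure D2:**
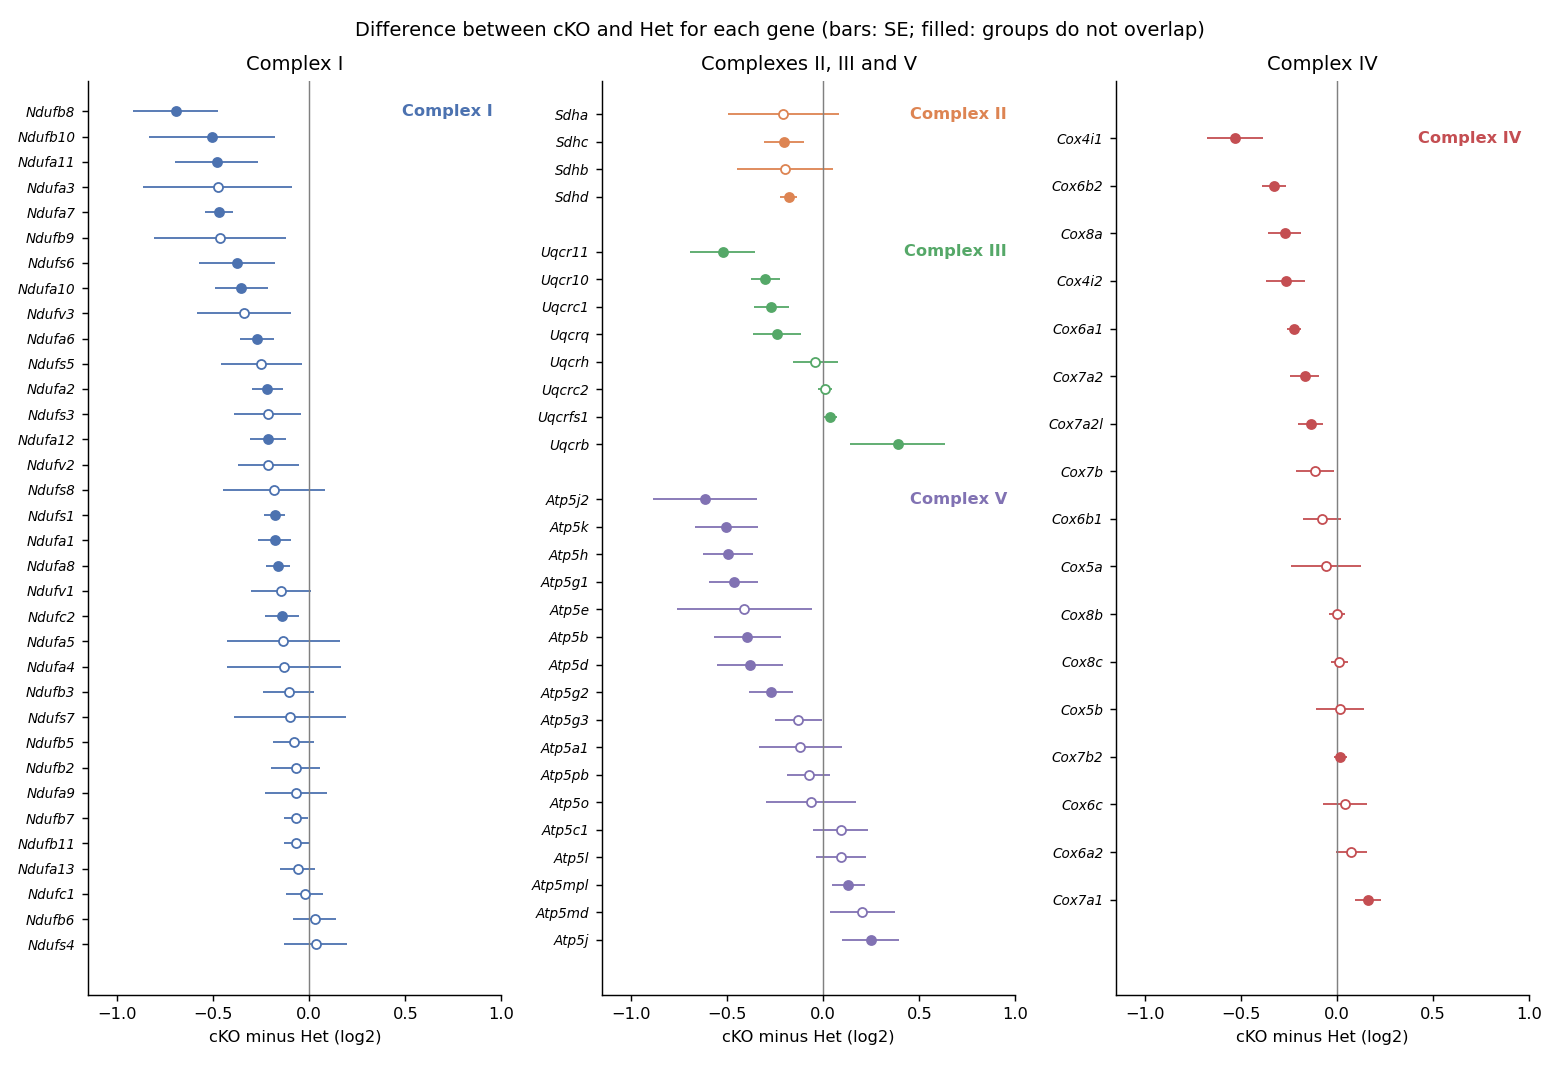
cKO minus Het difference (log2) of every member, by complex, with bars of 1 SE (n = 2 arrays per group); filled points are genes whose groups do not overlap. Differences lie to the left of 0 in 32 of 34 genes of complex I, 4 of 4 of complex II, 5 of 8 of complex III, 11 of 17 of complex IV and 12 of 17 of complex V.

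Complex IV, cytochrome c oxidase, had 11 of its 17 members lower in cKO. Of its members 7 were lower and 2 higher without overlap, against 15.6% and 17.8% of all genes. Its median difference was -0.08, nearest to 0 among the complexes, with a range of -0.53 to 0.16. Without cKO replicate 2 it was -0.01 and without cKO replicate 1 it was -0.14. Cox4i1, the ubiquitous form of the largest nuclear subunit, stood at -0.16 and -0.54 in cKO, against 0.16 and 0.19 in Het. Both Het arrays were high and both cKO arrays low, with a difference of -0.53 ± 0.15 or 1.44-fold lower in cKO (limma adjusted p = 0.936). Cox5a and Cox5b, nuclear subunits on the matrix side of the complex, lay nearer to 0. Cox5a stood at 0.18 and -0.29 in cKO, against -0.02 and 0.02 in Het, a difference of -0.06 ± 0.18. Cox5b stood at 0.17 and -0.14 in cKO, against 0.02 and -0.02 in Het, a difference of 0.02 ± 0.13. In both genes the 2 cKO arrays were the extremes and the Het arrays lay between them. The difference of Cox5a turned to 0.18 without cKO replicate 2, and that of Cox5b to -0.14 without cKO replicate 1 and -0.01 without Het replicate 2. The 2 probe sets of Cox5b differed in sign, at -0.01 and 0.04.

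Several subunits of complex IV exist as a widely expressed form and a form that is restricted to muscle, testis or other tissues. Cox6a1, the widely expressed form, stood at -0.10 and -0.12 in cKO, against 0.10 and 0.12 in Het, a difference of -0.22 ± 0.04 with the smallest SE among the members lower without overlap (limma adjusted p = 0.897). Its muscle form Cox6a2 stood at -0.03 and 0.11 in cKO, against -0.10 and 0.03 in Het, a difference of 0.07 ± 0.08 with overlapping groups. Cox7a2, widely expressed, stood at -0.19 and -0.03 in cKO, against 0.03 and 0.08 in Het, a difference of -0.17 ± 0.07. Its muscle form Cox7a1 stood at 0.03 and 0.17 in cKO, against -0.09 and -0.03 in Het, a difference of 0.16 ± 0.07. Cox7a2 was lower and Cox7a1 higher in cKO, both without overlap.

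The other isoform sets differed in other ways. Cox6b2, known from testis, was lower in cKO at -0.25 and -0.12, against 0.17 and 0.12 in Het, a difference of -0.33 ± 0.06. Its widely expressed partner Cox6b1 stood at 0.04 and -0.20 in cKO, against -0.02 and 0.02 in Het, a difference of -0.08 ± 0.10 that turned to 0.04 without cKO replicate 2. Cox4i2, a form known from lung, stood at -0.05 and -0.21 in cKO, against 0.23 and 0.05 in Het, a difference of -0.27 ± 0.10, on the same side as Cox4i1. Cox8a, the widely expressed form, stood at -0.07 and -0.27 in cKO, against 0.13 and 0.07 in Het, a difference of -0.27 ± 0.09. The restricted forms Cox8b, Cox8c and Cox7b2 lay within 0.05 of their medians on every array, with differences of -0.00 ± 0.04, 0.01 ± 0.04 and 0.02 ± 0.03. Since the values hold no level, it cannot be said which of these restricted forms were detected. The 10 skeletal muscle markers had a median difference of -0.02. Cox7a2l, which is kept by its symbol and is known as a factor of supercomplexes rather than a core subunit, stood at -0.14 and -0.02 in cKO, against 0.09 and 0.02 in Het.

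**Figure D3:**
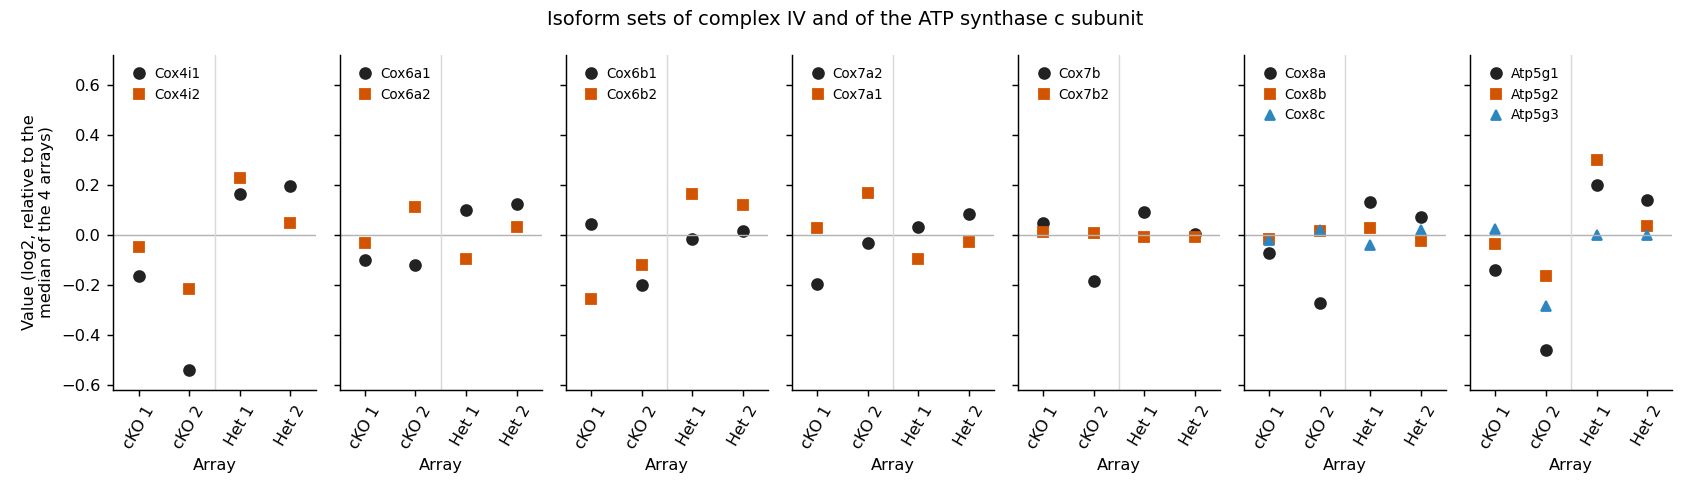
Log2 deviation on the 4 arrays of the isoform sets of complex IV and of the 3 genes for subunit c of complex V, with cKO arrays left of Het arrays. Cox4i1, Cox4i2, Cox6a1, Cox6b2, Cox7a2, Cox8a, Atp5g1 and Atp5g2 are lower on both cKO arrays than on both Het arrays, and Cox7a1 and, by a small amount, Cox7b2 are higher on both.

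Complex V, the ATP synthase, had 12 of its 17 members lower in cKO. Of its members 7 were lower and 2 higher without overlap, against 15.6% and 17.8% of all genes. Its medians were 0.02 and -0.29 on the cKO arrays, against 0.17 and 0.00 on the Het arrays, and its median difference was -0.13, with a range of -0.62 to 0.25. The median changed sign with the arrays: it turned to 0.02 without cKO replicate 2 and was -0.33 without cKO replicate 1 and -0.29 without Het replicate 2.

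In the catalytic F1 part, Atp5b, the catalytic beta subunit, stood at -0.04 and -0.41 in cKO, against 0.30 and 0.04 in Het, a difference of -0.39 ± 0.18. Atp5a1, the alpha subunit, stood at 0.14 and -0.31 in cKO, against 0.21 and -0.14 in Het, a difference of -0.12 ± 0.22. Atp5c1, the gamma subunit of the rotating stalk, stood at 0.07 and -0.07 in cKO, against 0.08 and -0.26 in Het, a difference of 0.09 ± 0.14. Atp5b was the F1 core gene of these whose groups did not overlap, whereas Atp5a1 and Atp5c1 were ordered by replicate number. Atp5a1 turned to 0.11 without cKO replicate 2 and to 0.06 without Het replicate 1, and Atp5c1 to -0.08 without Het replicate 2. Atp5d, the delta subunit, stood at -0.06 and -0.50 in cKO, against 0.14 and 0.06 in Het, a difference of -0.38 ± 0.17. Atp5e, the epsilon subunit, stood at 0.12 and -0.64 in cKO, against 0.41 and -0.12 in Het, a difference of -0.41 ± 0.35. These small stalk subunits were both lowest on cKO replicate 2, and Atp5e had the largest mean gap between replicates in complex V, 0.76 within cKO and 0.53 within Het.

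The ring of subunit c, which carries protons through the membrane, is made from 3 genes that encode the same mature protein. Atp5g1 stood at -0.14 and -0.46 in cKO, against 0.20 and 0.14 in Het, a difference of -0.47 ± 0.13. Atp5g2 stood at -0.04 and -0.16 in cKO, against 0.30 and 0.04 in Het, a difference of -0.27 ± 0.12. Atp5g3 stood at 0.02 and -0.28 in cKO, against -0.00 and 0.00 in Het, a difference of -0.13 ± 0.12. Atp5g1 and Atp5g2 were lower in cKO without overlap, and all their probe sets were on the same side (-0.51 and -0.42 for Atp5g1, and -0.27 for each of 3 of Atp5g2). Atp5g3 overlapped and turned to 0.02 without cKO replicate 2.

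Among the stalk and membrane subunits, Atp5j2, the f subunit, stood at -0.06 and -0.63 in cKO, against 0.48 and 0.06 in Het, a difference of -0.62 ± 0.27 or 1.53-fold lower in cKO. Atp5k, the e subunit that joins synthase dimers, stood at -0.11 and -0.29 in cKO, against 0.49 and 0.11 in Het, a difference of -0.50 ± 0.16. Atp5h, the d subunit of the outer stalk, stood at -0.14 and -0.45 in cKO, against 0.26 and 0.14 in Het, a difference of -0.49 ± 0.13, with 3 probe sets between -0.58 and -0.43. All 3 were lower in cKO without overlap (limma adjusted p of 0.958, 0.936 and 0.936). Atp5o, which ties the outer stalk to the F1 head, stood at 0.19 and -0.32 in cKO, against 0.17 and -0.17 in Het. Its difference of -0.06 ± 0.23 turned to 0.19 without cKO replicate 2 and to 0.11 without Het replicate 1.

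The 5 members of complex V on the other side of 0 were Atp5j, Atp5md, Atp5mpl, Atp5l and Atp5c1. Atp5j, coupling factor of the outer stalk, stood at 0.02 and 0.05 in cKO, against -0.02 and -0.40 in Het, a difference of 0.25 ± 0.15 or 1.19-fold higher in cKO that rested on Het replicate 2. Atp5md, a small membrane subunit, stood at 0.41 and -0.03 in cKO, against -0.04 and 0.02 in Het, a difference of 0.20 ± 0.17, with 3 probe sets between 0.16 and 0.24. Atp5mpl, another small membrane protein, stood at 0.21 and 0.00 in cKO, against -0.05 and -0.00 in Het, a difference of 0.13 ± 0.09. Atp5l, the g subunit, stood at 0.24 and -0.07 in cKO, against 0.06 and -0.08 in Het, a difference of 0.09 ± 0.13 over 6 probe sets between 0.01 and 0.12. Like Uqcrb, the last 3 of these genes were highest on cKO replicate 1, as were 16 of the 80 members in all (20%, against 22.4% of all genes).

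The 3 members on the X chromosome are given beside the unequal Xist values. Ndufa1, a membrane-arm subunit of complex I, stood at -0.02 and -0.14 in cKO, against 0.19 and 0.02 in Het, a difference of -0.18 ± 0.09. Ndufb11, also of the membrane arm, stood at -0.04 and -0.03 in cKO, against 0.10 and -0.04 in Het, a difference of -0.07 ± 0.06, with probe sets at -0.25 and 0.12. Cox7b, of complex IV, stood at 0.05 and -0.18 in cKO, against 0.09 and 0.00 in Het, a difference of -0.12 ± 0.10. Their median difference was -0.12, against -0.17 over all 80 members. A part of sex in these values was not tested.

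Within each group, replicate 1 tended to exceed replicate 2. cKO replicate 1 was above cKO replicate 2 in 63 of the 80 members (78.8%, against 46.8% of all genes), and Het replicate 1 above Het replicate 2 in 57 (71.2%, against 49.1%). In 27 members both replicate 1 arrays lay above both replicate 2 arrays (33.8%, against 17.8% of all genes), and in 5 the order was reversed (6.25%, against 21.4%). The reversed members were Ndufs4, Ndufs5, Ndufb6, Cox6a2 and Cox8c. The median replicate 1 minus replicate 2 difference within cKO was 0.18 in complex I, 0.37 in complex II, 0.02 in complex III, 0.02 in complex IV and 0.31 in complex V. Within Het it was 0.15, 0.25, 0.16, 0.00 and 0.26 in the same order of complexes. In complexes II and V the gap between replicates was thus larger than the cKO minus Het median of the same complex, in both groups, and in complex I the gap within cKO matched the cKO minus Het median in size. Ndufs5 showed the strongest reversal, at -0.53 and 0.03 in cKO, against -0.01 and 0.01 in Het, where a single low array, cKO replicate 1, set both of its differences.

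**Figure D4:**
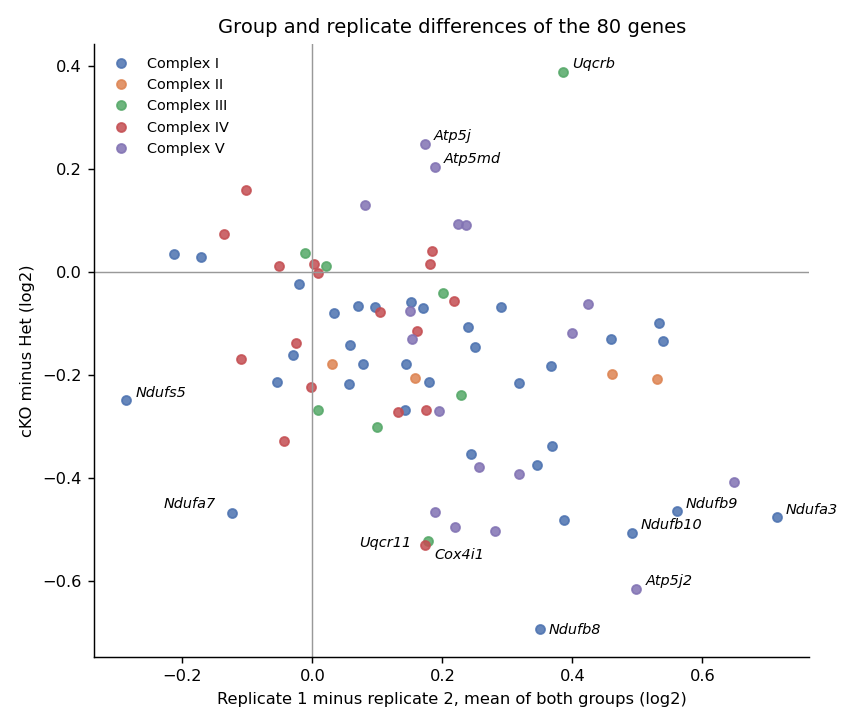
Each member's cKO minus Het difference (vertical, log2) against its replicate 1 minus replicate 2 difference averaged over both groups (horizontal, log2), coloured by complex. Most points lie below 0 on the vertical and above 0 on the horizontal axis; both axes use the same 4 arrays.

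The subunits encoded in the mitochondrial genome stood on the other side of 0 from most nuclear genes. Of 13 such genes, 2 had probe sets of their own. ND3, a membrane subunit of complex I, stood at -0.14 and 0.15 in cKO, against -0.46 and 0.14 in Het, a difference of 0.16 ± 0.25. COX2, which holds the copper centre of complex IV that receives electrons from cytochrome c, stood at -0.02 and 0.05 in cKO, against -0.37 and 0.02 in Het, a difference of 0.19 ± 0.16. Both were lowest on Het replicate 1, the array on which most nuclear subunits were highest, and without it the differences turned to -0.14 and -0.0052.

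Genes that help to build the complexes had medians near 0. The 15 assembly factors of complex I had a median difference of -0.05, with 9 lower and 6 higher in cKO, and 0 passed the test. Ndufaf2, an assembly factor of complex I, stood at -0.15 and -0.29 in cKO, against 0.15 and 0.24 in Het, a difference of -0.41 ± 0.07. The 28 measured assembly factors of complexes II to V, of 32 listed, had a median of -0.02, with 17 lower and 11 higher, and again 0 passed. Sdhaf1, which helps to mature the iron-sulphur subunit of complex II, stood at -0.10 and -0.23 in cKO, against 0.10 and 0.28 in Het, a difference of -0.35 ± 0.09. Cox20, which assists the insertion of COX2, stood at 0.11 and 0.25 in cKO, against -0.25 and -0.11 in Het, a difference of 0.36 ± 0.08. These 3 factors had groups that did not overlap, and they were picked from more. Without overlap, 4 factors of complex I were lower in cKO and 1 higher. Of the factors of complexes II to V, 7 were lower and 2 higher without overlap. Over all genes 15.6% were lower without overlap and 17.8% higher.

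The 14 regulators of mitochondrial biogenesis had a median difference of 0.01, with 6 lower and 8 higher, and 0 passed the test. Ppargc1a, the coactivator PGC-1 alpha, stood at 0.00 and 0.25 in cKO, against -0.04 and 0.00 in Het, a difference of 0.14 ± 0.10. Nrf1, whose letters were searched in the promoters, stood at 0.08 and -0.08 in cKO, against -0.09 and 0.27 in Het, a difference of -0.09 ± 0.15. Gabpa, the DNA-binding part of GABP, differed by 0.07 ± 0.09 and Tfam, which packages mitochondrial DNA, by -0.08 ± 0.06. None of these 4 differed by much more than its SE. Beside the promoters shown above, the 24 members with NRF1 letters had a median difference of -0.19. The 42 with a promoter but no such letters had a median of -0.14. Lower without overlap were 13 of the 24 and 14 of the 42, against 15.6% of all genes. For the ETS letters the order of the medians was the other way, with -0.13 in 12 members that had them and -0.17 in 54 that did not. With SP1 letters the median was -0.19 in 24 members, against -0.14 in 42 without them, and the single member with YY1 letters, Atp5j, stood at 0.25.

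Of the genes that feed the chain, the 14 electron carriers and their feeders had a median of -0.04, with 11 lower and 3 higher, and 11 were highest on Het replicate 1. Etfb, which hands electrons from fatty acid oxidation to ubiquinone, stood at 0.10 and -0.62 in cKO, against 0.53 and -0.10 in Het, a difference of -0.47 ± 0.36. Cyc1, the cytochrome c1 of complex III that lies outside the symbol families, stood at -0.10 and -0.08 in cKO, against 0.33 and 0.08 in Het, a difference of -0.30 ± 0.10 without overlap. The 16 citric acid cycle genes measured, of 17 listed, had a median of -0.11, with 11 lower and 5 higher. Of the 16, 5 were lower without overlap and 1 higher, against 15.6% and 17.8% of all genes. The 7 ADP/ATP carriers, phosphate carriers and porins had a median of -0.02, with 4 lower and 3 higher. In none of these lists did a gene pass the test.

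The arrays with the lowest and the highest median were the same in 3 lists of other protein-making and protein-degrading genes. The 39 proteasome subunits had medians of 0.02 and -0.24 on the cKO arrays, against 0.16 and -0.01 on the Het arrays, and a median difference of -0.16, with 16 lower in cKO without overlap. The 52 cytosolic ribosomal protein genes had medians of -0.05 and -0.11 in cKO, against 0.16 and 0.05 in Het, and a median difference of -0.22, with 37 lower without overlap. The 77 mitochondrial ribosomal protein genes had a median difference of -0.07, with 20 lower and 10 higher without overlap. In the proteasome and the cytosolic ribosomal list 2 genes each were higher without overlap. Over all genes 15.6% were lower without overlap and 17.8% higher. In all 3 lists cKO replicate 2 had the lowest median and Het replicate 1 the highest, as in the subunit genes. The subunit median difference of -0.17 lay among theirs. The citric acid cycle, electron carrier and glycolysis lists also had their lowest and highest medians on these arrays. The 17 cell cycle genes had medians of 0.12 and -0.22 in cKO, against 0.03 and -0.01 in Het, so that they too were lowest on cKO replicate 2, with cKO replicate 1 highest. Whether proliferation has a part in the low values on that array was not tested.

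**Figure D5:**
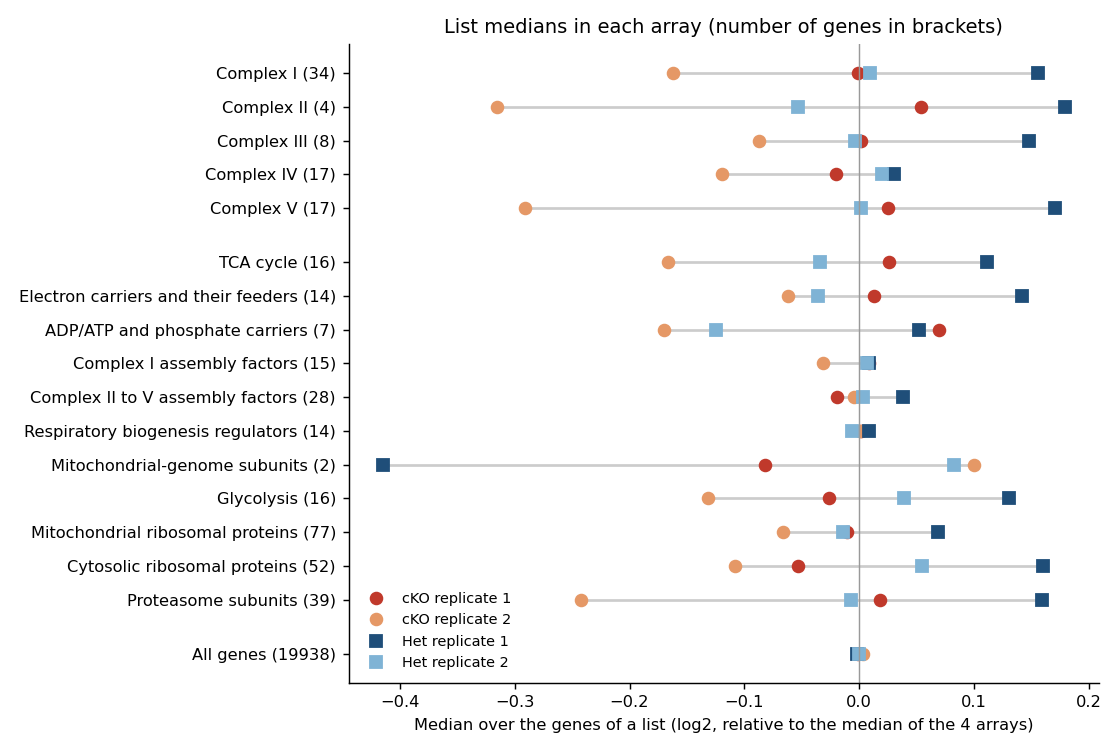
Median log2 deviation (horizontal) of the 5 complexes, the other mitochondrial lists, the comparison lists and all genes (rows); circles are cKO arrays, squares are Het arrays, and a grey line spans the 4 medians. The 5 complexes have their lowest median on cKO replicate 2 and their highest on Het replicate 1. So do the citric acid cycle, electron carrier, glycolysis, proteasome and both ribosomal lists. The biogenesis regulators stay near 0.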

How the data were processed

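Total RNA of sorted dermal papilla cells was amplified, labelled with biotin and hybridised to 4 arrays, per the labels' protocols. The authors deposited values made with RMA, per the submitters' processing notes; no source used here gives the version or says who centred the values. Each of the 28853 probe sets had a median of 0 over the arrays, and the deposited values were taken as log2, an assumption. Depth does not apply to arrays, whose number limits the precision.

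Of the probe sets, 21789 named 1 gene in the platform annotation, 1621 several and 5443 none; only the first kind was used, as the mean per gene. This gave 19938 genes, 999 with more than 1 probe set, and a GRCm38.p6 gene table changed 0 symbols. cKO was compared with Het in R 4.3.3 with limma 3.58.1 (lmFit, eBayes, group as the only term, two-sided, 2 residual and 1.52 prior degrees of freedom), adjusted by Benjamini-Hochberg over all genes at 0.05. The fit was tested on simulated data. Groups do not overlap where both cKO arrays lie on 1 side of both Het arrays. Promoters were searched and figures drawn with Python 3.11.15 and matplotlib 3.10.9.

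The members, the gene lists and the tests were chosen with earlier results of these data known. Genes were named by a rule: per complex up to 4 genes without overlap and with the largest difference, up to 3 with the largest gap between replicates, the catalytic core, the isoform sets, the X-linked members and Sox2. Ndufb6, Ndufs4, Atp5j, Atp5md, Atp5mpl, Atp5l and the single genes named from the other lists were chosen after their values were seen. Uqcrc2, Atp5d, Ndufs5 and Cox7a2l were also named outside the rule, with their values known. A planned filter on low values was not run, since centred values hold no level. Alternatives were each array left out, the replicate number as a block, array centring, quantile normalization, 1 row per probe set, a robust prior, an unmoderated statistic and other memberships.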

Additional observations from a re-analysis of the deposited data

How the results depend on the processing

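With 2 arrays per group and centred values, neither detection nor a difference of this size in a single gene can be settled. The count of genes and of members passing the adjusted p was 0 under limma in every setting that was run, at unadjusted p under 0.05 with 680 genes lower and 373 higher (14 and 0 members). A filter on low values was not run. With the replicate number as a block, the medians per complex were the same, 0 genes passed, and 1181 genes were lower and 444 higher at unadjusted p under 0.05 (26 and 1 members); same-numbered arrays deviated together (r = 0.30 over 19938 genes), but the labels do not say whether a number marks a shared litter or day, so the arrays were not treated as paired. At the same unadjusted threshold an unmoderated statistic gave 4 members lower and 2 higher, and 414 genes lower and 523 higher over all genes.

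Leaving out each array in turn, the median cKO minus Het difference ranged from -0.26 to -0.08 in complex I, -0.39 to -0.02 in complex II, -0.23 to -0.047 in complex III, -0.14 to -0.0095 in complex IV, -0.33 to 0.025 in complex V and -0.24 to -0.036 over all members. The count of lower members ranged from 49 (61.2%, against 51.9% of all genes) to 67 (83.8%, against 46.3%), and of those without overlap from 35 (43.8%, against 33.4%) to 60 (75%, against 32.5%). The sign turned in 19 of 80 members without cKO replicate 2, 16 without Het replicate 1, 6 without cKO replicate 1 and 5 without Het replicate 2. Between cKO replicate 1 and Het replicate 2 alone, a comparison chosen after seeing the data, the medians were -0.032, 0.11, 0.0070, -0.040 and 0.074 in complexes I to V and -0.013 over all members.

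Quantile normalization gave medians of -0.12, -0.10, -0.07, -0.04 and -0.07 in complexes I to V, -0.11 over all members and 58 lower members. Complex III, with few genes, was -0.041 with 1 row per probe set and -0.24 with Cyc1 among its members. The replicate 1 minus replicate 2 median within cKO was 0.18 in complex III and 0.095 in complex IV with 1 row per probe set; in complex IV it was 0.093 with Ndufa4 moved there, 0.093 without Cox7a2l and 0.24 without the tissue-restricted isoforms. The cause of these shifts was not tested beyond the change of genes that each setting makes. Without Atp5s and Atp5sl, as planned, nothing changed, because the annotation lists both under other symbols.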

Other observations

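Glycolysis, the other main route to ATP, was lower in cKO in 14 of its 16 measured genes, of 20 listed, against 47.7% of all genes. Of the 16, 10 were lower without overlap, against 15.6% of all genes, and 0 passed the test (limma, adjusted over all genes). Ldha, lactate dehydrogenase A, stood at -0.20 and -0.42 in cKO, against 0.45 and 0.20 in Het, a difference of -0.63 ± 0.13. Pkm, pyruvate kinase, stood at -0.17 and -0.12 in cKO, against 0.19 and 0.13 in Het, a difference of -0.31 ± 0.04. Aldoa and Tpi1, enzymes of the steps that split hexose into triose, differed by -0.50 ± 0.25 and -0.48 ± 0.22. Of the 16 glycolytic genes, 2 had both replicate 1 arrays above both replicate 2 arrays and 2 the reverse. As in the subunit genes, 11 of the 16 were lowest on cKO replicate 2 and 12 highest on Het replicate 1. Their medians were -0.03 and -0.13 on the cKO arrays, against 0.13 and 0.04 on the Het arrays. Ldha, Pkm, Aldoa and Tpi1 were chosen after their values were seen.

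Ndufa4l2, a relative of Ndufa4 that the symbol families leave out, was lower than any member in its cKO minus Het difference: it stood at -0.21 and -0.55 in cKO, against 0.59 and 0.21 in Het, a difference of -0.78 ± 0.20 (limma adjusted p = 0.934). Ndufa4 itself, named for complex I and since assigned to complex IV, stood at 0.25 and -0.51 in cKO, against 0.08 and -0.08 in Het, a difference of -0.13 ± 0.30 that turned to 0.25 without cKO replicate 2.

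Probe sets that name several genes were kept out of the members. For Cox7c, shared with the predicted gene Gm12338, 3 probe sets differed by 0.01, 0.02 and 0.04, each highest on cKO replicate 1 and lowest on cKO replicate 2. For Ndufb4, shared with its copy Ndufb4b, 2 probe sets differed by -0.24 and -0.25, lower in cKO without overlap. The probe set shared by Ndufs5 and its pseudogene differed by -0.24, with cKO replicate 2 lowest, whereas the probe set of Ndufs5 alone was lowest on cKO replicate 1.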
